A study of Mus musculus with 25 samples.

Results

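Sterol and fatty acid synthesis genes were described here as a set of 30 named genes, made up of 18 enzymes of the sterol pathway, 6 genes that control it or move sterols, and 6 enzymes that make fatty acids. The genes were picked by symbol and not by a rule on their values, though with earlier results of these data known. Each of the 30 had exactly 1 row in the table and a mean of at least 3 over the animals, so all 30 were among the 19141 genes tested, of 47069 in the table. RNA came from whole pituitaries of hpg mice, hypogonadal animals in which both copies of the gonadotropin-releasing hormone (GnRH) gene carry a deletion, so that the pituitary receives no GnRH of the animal's own, and this held for every group. The groups were 5 females given placebo (saline, animals 1 to 5), 6 females given GnRH (6 to 11), 6 males given placebo (12 to 17) and 8 males given GnRH (18 to 25). GnRH was given at 1 µg into the abdominal cavity once a day for 10 days, placebo animals received saline on the same schedule, and all were killed 1 h after the last injection. Age is not given in the sources used here. Each animal gave 1 library, values are regularized log2 values (log2 counts scaled between libraries and drawn towards each gene's mean), and the depth of the libraries is unknown. Differences of low genes are understated. The p-values set differences between groups against the spread between animals within groups, estimated from all 25 animals together. No group was sampled at another time, so effects of the last dose and of repeated dosing cannot be told apart.

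As a check of the injections, Fshb, the beta subunit of follicle-stimulating hormone, was 4.2-fold higher with GnRH in females and 6.81-fold higher in males (adjusted p = 0.000347 and 1.52e-07, limma). The female call was lost without females 5, 6 and 7 (1.76 on the log2 scale, adjusted p = 0.0638). The pituitary hormone genes Gh, Prl, Pomc, Tshb and Cga were all well above the filter in the libraries. Correlations between libraries over the genes tested lay between 0.992 and 0.998. Among the adipocyte markers, Adipoq, Plin1, Cfd, Lep and Retn had means under 3 and Lep was at 0 in all 25 libraries. The sixth, Fabp4, which endothelial cells and macrophages also express, was tested, and its averaged difference with GnRH was 0.25 (95% interval 0.069 to 0.43, adjusted p = 0.191, limma). Animals 5, 6 and 7 had the highest values of Prx, which encodes periaxin of myelinating Schwann cells (7.31, 7.54 and 6.77, against 5.06 to 5.56 in the other 22), and the counts of calls and the genes that passed the test are also given without these 3 females. Males 18 and 21 were also left out together, because earlier results of these data had set them apart from the other males.

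Cells make cholesterol from acetyl-CoA through the mevalonate pathway, which runs by way of isoprenoids and squalene to lanosterol and then to cholesterol. The membrane-bound factors SREBP-1 and SREBP-2, encoded by Srebf1 and Srebf2, switch on most of these genes when sterols in the endoplasmic reticulum are scarce: SCAP escorts them to the Golgi for release, and the INSIG proteins hold the complex back when sterols are plentiful. SREBP-1 is best known for fatty acid genes and SREBP-2 for sterol genes. Hormone-secreting pituitary cells need cholesterol and fatty acids for the membranes of their secretory granules.

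SREBPs bind sterol regulatory elements near gene starts, commonly beside boxes bound by the factor NF-Y. To show what such letters look like in these genes, the 150 bases before the start of 4 sterol enzymes are printed from RefSeq (build GRCm38.p6, the assembly known as mm10), 5′ to 3′. Pmvk is shown because it was the 1 member that passed the test, and Hmgcs1, Idi1 and Msmo1 because they moved together across animals most closely among the sterol enzymes. Capitals mark the sterol regulatory element TCACNCCAC and the NF-Y box CCAAT on either strand, so that ATTGG is CCAAT read on the other strand.
Pmvk (chr3:89454391-89454540, plus strand): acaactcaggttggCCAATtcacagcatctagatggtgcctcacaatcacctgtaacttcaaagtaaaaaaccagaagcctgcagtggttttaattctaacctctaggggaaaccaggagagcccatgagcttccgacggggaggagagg
Hmgcs1 (chr13:119690201-119690350, plus strand): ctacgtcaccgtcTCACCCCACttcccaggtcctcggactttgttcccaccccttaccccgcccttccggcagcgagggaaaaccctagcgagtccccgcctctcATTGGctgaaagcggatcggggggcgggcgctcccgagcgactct
Idi1 (chr13:8885456-8885605, plus strand): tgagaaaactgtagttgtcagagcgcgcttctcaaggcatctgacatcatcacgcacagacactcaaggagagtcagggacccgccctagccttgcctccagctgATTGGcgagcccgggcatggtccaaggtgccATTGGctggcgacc
Msmo1 (chr8:64733579-64733728, minus strand): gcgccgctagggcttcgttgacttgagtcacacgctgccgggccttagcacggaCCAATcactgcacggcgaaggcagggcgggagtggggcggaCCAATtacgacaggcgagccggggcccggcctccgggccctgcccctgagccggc
Hmgcs1 had both motifs, the sterol regulatory element beginning 137 bases before the start and an NF-Y box beginning 45 bases before it. Pmvk had 1 NF-Y box, beginning 136 bases before its start, while Idi1 had boxes 45 and 14 bases and Msmo1 96 and 55 bases before theirs. A RefSeq promoter was matched for 24 of the 30 members, with 32 promoters in all. In the 250 bases before the start, searched on both strands and with each motif counted on its own whether or not matches overlapped, CCAAT was present in 19 of the 24 genes (79.2%), against 37.5% of all genes with a promoter in that table. It was in 14 of the 15 sterol enzymes with a promoter. GGGCGG, the GC box bound by Sp1, was in 20 of 24 genes (83.3%, against 35.4% of all genes), and the E-box CACGTG in 5 of 24 (20.8%, against 6.86%). TCACNCCAC was found in Hmgcs1 only, 4.17% of the genes, against 1.22% of all genes. Every member passed the filter on expression, whereas the genes with a promoter were not filtered on it, so these shares do not compare like sets. These matches are letters in a window and were not tested against the expression values.

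GnRH against placebo asked how these genes differ between hpg pituitaries with and without 10 days of the hormone. Pmvk, phosphomevalonate kinase, which adds the second phosphate to mevalonate, was the only member that rose, by 0.34 on the log2 scale averaged over the sexes (1.26-fold, 95% interval 0.22 to 0.46, adjusted p = 0.00109, limma). No member fell. The count of 1 of 30 members called stands beside 1.71% of all genes tested in that comparison. The neighbours of Pmvk in the pathway, Mvk before it and Mvd after it, had averaged differences of 0.076 and 0.014 (adjusted p = 0.629 and 0.931). Apart from Pmvk, the 95% intervals of the averaged differences all lay between -0.31 (Stard4) and 0.20 (Cyp51).

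Pmvk lies on mouse chromosome 3 at 89454541 to 89469014, and no exon of another annotated gene overlaps its exons. Its values were 9.56, 9.67, 9.45, 9.48 and 9.63 in the 5 placebo females, and their lowest, median and highest were 9.70, 9.94 and 9.96 in the 6 GnRH females. In males they were 9.37, 9.55 and 9.72 with placebo and 9.68, 9.83 and 10.28 with GnRH. Every GnRH female lay above every placebo female, and 7 of 8 GnRH males lay above every placebo male, the exception being within the placebo range. Groups that do not overlap, with GnRH higher, occurred for 0.528% of all genes in females and 0.345% in males, and with GnRH lower for 0.24% and 0.0575%. Pmvk in females was the only member whose groups did not overlap in either sex and either direction. Group means were 9.56 ± 0.09 (SD, n = 5) and 9.88 ± 0.11 (SD, n = 6) in females and 9.55 ± 0.12 (SD, n = 6) and 9.91 ± 0.21 (SD, n = 8) in males.

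The difference of Pmvk was also taken within each sex. In males it was 0.35 (SE 0.078, adjusted p = 0.0265, limma), so that 1 of 30 members was called, beside 0.496% of all genes. In females it was 0.32 (SE 0.087) and did not pass over all genes (adjusted p = 0.172), so that 0 of 30 members were called there, beside 0.0993% of all genes. One female member, Pmvk, had an unadjusted p under 0.05 in limma, where 9.57% of all genes had one and 5.11% had one with GnRH higher. The male minus female difference of the effect was 0.031 (95% interval -0.21 to 0.27, adjusted p = 0.999). Males 18 and 21 had the 2 highest values, 10.19 and 10.28, and without both the male difference was 0.24 (adjusted p = 0.114) and the averaged one 0.28 (adjusted p = 0.000433). Leaving out 1 animal kept the averaged call in all 25 fits, at 0.31 to 0.36, whereas the male call was lost in 6 of 14 fits, those without placebo males 12 (adjusted p = 0.0647), 13 (0.104), 14 (0.0834) or 16 (0.0588) or GnRH males 18 (0.0683) or 21 (0.0523). Without females 5, 6 and 7 the averaged difference was 0.33 (adjusted p = 0.012) and the female one 0.31 (adjusted p = 0.735).

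**Figure D1:**
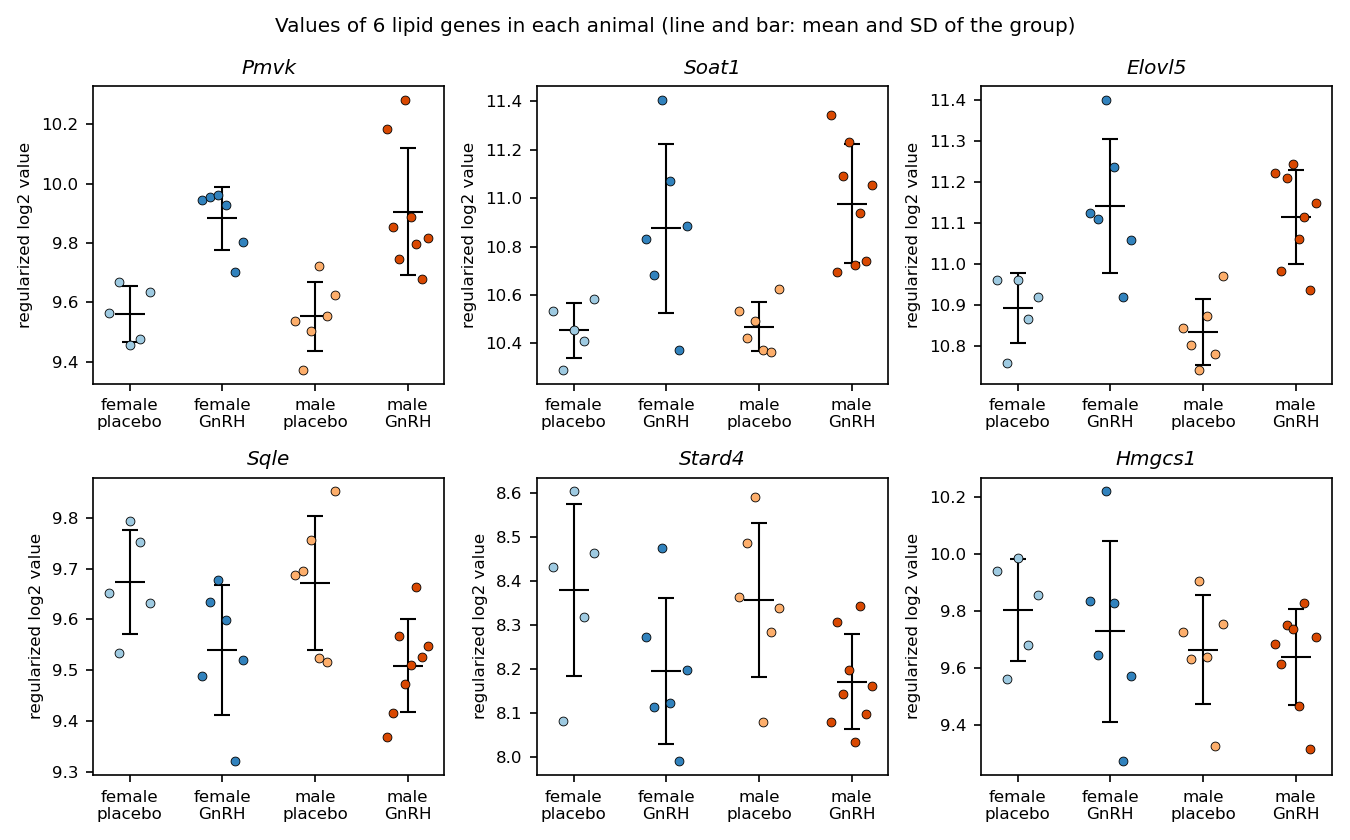
Regularized log2 values of Pmvk, Soat1, Elovl5, Sqle, Stard4 and Hmgcs1 in each of the 25 animals, by group, with the group mean and SD as a line and bar (each panel has its own y axis). For Pmvk the GnRH females sit between 9.70 and 9.96, all above the placebo females at 9.45 to 9.67, while the Hmgcs1 groups overlap throughout.

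Some markers of gonadotropes and of vessel cells also differed with treatment. No tested marker of somatotropes, lactotropes, thyrotropes, corticotropes and melanotropes, stem and folliculostellate cells or the posterior lobe was called in the averaged comparison (limma). Of the 6 gonadotrope markers, all tested, 3 were called higher and 2 lower in the averaged comparison (limma). The summed level of the 6 was 14.5 to 15.0 in placebo and 15.0 to 15.7 in GnRH females, and 14.4 to 15.4 and 14.9 to 15.6 in males. A summed level is the log2 of the sum of unlogged values, so the highest gene weighs most. For gonadotropes that gene was Cga (mean 14.8, against 10.9 for Fshb and 10.7 for Lhb). For endothelium it was Plvap (11.9, against 10.2 for Kdr). Of the 5 endothelial markers, all tested, Emcn and Plvap rose in the averaged comparison (0.25 and 0.18, adjusted p = 0.00289 and 0.0238). The endothelial summed level was 12.6 to 12.7 and 12.7 to 12.9 in females, and 12.6 to 12.7 and 12.6 to 13.0 in males. The part of these cells in the Pmvk difference was not tested. Within groups, over the 25 animals with group means removed, Pmvk had r = -0.19 with the gonadotrope level (rho -0.15, r = -0.18 without the 2 farthest animals) and r = 0.14 with the endothelial level (rho 0.0077, r = 0.0021), given as descriptions. In whole tissue, more cells of a type and more RNA per cell cannot be told apart.

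Among the other sterol enzymes, none passed the test in either direction. Over the 18 enzymes, 7 averaged differences were positive and 11 negative, with a median of -0.032, where the median of all genes tested was -0.00088. The sterol enzyme median ran from -0.040 to -0.016 with 1 animal left out, nearest to 0 without GnRH female 10. By unadjusted p under 0.05, Sqle, Hsd17b7 and Dhcr7 were lower and Pmvk higher. Sqle, squalene epoxidase, a controlled step after squalene, had the smallest p after Pmvk. It was at 9.65, 9.53, 9.79, 9.75 and 9.63 in placebo females, with a lowest, median and highest of 9.32, 9.56 and 9.68 in GnRH females. In males, Sqle was at 9.52, 9.69 and 9.85 with placebo and 9.37, 9.52 and 9.66 with GnRH. GnRH animals tended to the low side in both sexes with overlapping groups, and 3 of 6 females and 4 of 8 males lay below every placebo animal of their sex. The averaged Sqle difference was -0.15 (95% interval -0.24 to -0.053) and missed the threshold over all genes (adjusted p = 0.122, limma). With animals weighted by their fit to the model (array weights) it was -0.17 and passed (adjusted p = 0.0184).

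Hsd17b7, the ketosteroid reductase of the demethylation steps, was at 6.39, 6.58, 6.57, 6.41 and 6.47 in placebo females and had a lowest, median and highest of 6.21, 6.36 and 6.54 in GnRH females. Hsd17b7 in males was at 6.43, 6.45 and 6.75 with placebo and 6.19, 6.39 and 6.54 with GnRH. The groups overlapped in both sexes, with 4 of 6 GnRH females and 5 of 8 GnRH males below every placebo animal, and the averaged difference was -0.12 (SE 0.048, adjusted p = 0.305, limma). Dhcr7, the reductase that makes cholesterol in the last step of one branch, was at 9.50, 9.30, 9.59, 9.22 and 9.19 in placebo females and at 9.14, 9.32 and 9.40 in GnRH females, again as lowest, median and highest. Dhcr7 in males was at 9.25, 9.30 and 9.54 with placebo and 9.13, 9.17 and 9.30 with GnRH. Of the GnRH males, 7 of 8 lay below every placebo male, whereas only 1 of 6 GnRH females lay below every placebo female. Its averaged difference was -0.11 (SE 0.046, adjusted p = 0.315).

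Hmgcs1, the cytosolic synthase that supplies HMG-CoA for mevalonate, had the widest range of all members, 0.949 across the 25 animals. Its SD within groups was 0.220, below 0.239 for Scd1 and 0.227 for Scd2. Hmgcs1 was at 9.94, 9.56, 9.99, 9.68 and 9.86 in placebo females and at 9.27, 9.74 and 10.22 (lowest, median, highest) in GnRH females. In males, Hmgcs1 was at 9.33, 9.68 and 9.91 with placebo and 9.32, 9.70 and 9.83 with GnRH. Both extremes were GnRH females, animal 8 at the top and animal 10 at the bottom, and the averaged difference was -0.051 (95% interval -0.22 to 0.12, adjusted p = 0.846, limma). Msmo1, a methylsterol monooxygenase that takes part in the removal of methyl groups, had a range of 0.854. Msmo1 was at 9.10, 8.88, 9.41, 8.96 and 9.07 in placebo females, 8.62, 9.08 and 9.48 in GnRH females, 8.82, 8.96 and 9.21 in placebo males and 8.89, 9.10 and 9.16 in GnRH males. Here too the lowest animal of all was female 10 and the highest female 8, and the averaged difference was 0.025 (adjusted p = 0.92).

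The remaining sterol enzymes had averaged differences between -0.078 for Sc5d, a sterol desaturase, and 0.076 for Mvk, mevalonate kinase. Cyp51, the demethylase of lanosterol, was at 0.066, and Ebp, a sterol isomerase, at 0.037. Values near 0 were found for Idi1, the isomerase that converts one isoprene unit into the other (-0.006), Nsdhl, a decarboxylating sterol dehydrogenase (0.00067), and Mvd, the decarboxylase that ends the mevalonate steps (0.014). Tm7sf2, a sterol reductase, was at -0.069. The synthases that join isoprene units, Fdps (farnesyl diphosphate) and Fdft1 (squalene), were at -0.029 and -0.035, Lss, which closes the rings of lanosterol, at -0.036, and Acat2, the thiolase that makes acetoacetyl-CoA, at -0.046. Adjusted p-values of these 12 genes ran from 0.537 to 0.998 (limma). The narrowest of them was Fdft1, whose 95% interval of -0.10 to 0.025 was the tightest of all 30.

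The 6 genes of SREBP control and sterol transfer all had negative averaged differences, with a median of -0.061, and none passed the test. Within females 4 of the 6 were negative, and within males also 4. Of all genes tested, 50.6% had a negative averaged difference. With 1 animal left out, the averaged sign turned in 3 of 25 fits for Scap and in 1 for Insig1. Stard4, a small carrier that moves cholesterol between membranes, had the largest averaged difference. It was at 8.43, 8.08, 8.60, 8.32 and 8.46 in placebo females and at 7.99, 8.16 and 8.47 (lowest, median, highest) in GnRH females. In males, Stard4 was at 8.08, 8.35 and 8.59 with placebo and 8.03, 8.15 and 8.34 with GnRH. The groups overlapped, with only 1 GnRH animal of each sex below every placebo animal. The averaged difference was -0.19 (95% interval -0.31 to -0.059, adjusted p = 0.158, limma). Without placebo female 2, the lowest of the placebo females, it was -0.22 with adjusted p = 0.0464, and with array weights -0.22 with adjusted p = 0.0207.

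Srebf1, which encodes SREBP-1, was at 11.12, 10.59, 11.30, 11.24 and 11.07 in placebo females and 10.92, 11.04 and 11.29 (lowest, median, highest) in GnRH females. In males, Srebf1 was at 10.96, 11.20 and 11.40 with placebo and 10.63, 11.02 and 11.14 with GnRH. Female groups overlapped fully and 3 of 8 GnRH males lay below every placebo male. Its male difference was -0.24 (adjusted p = 0.573) and its female difference 0.016, the sign of which turned without placebo female 2 (-0.10) or GnRH female 8 (-0.027). Srebf2, which encodes SREBP-2, had an averaged difference of -0.094, Insig1 of -0.028, Insig2 of -0.024 and Scap of -0.0095. Adjusted p-values for these 4 lay between 0.632 and 0.948 (limma).

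The 6 fatty acid enzymes were negative in 5 cases and positive in 1, with a median averaged difference of -0.062, and none passed the test. Acly, which splits citrate to give cytosolic acetyl-CoA, had the smallest p. It was at 11.64, 11.36, 11.63, 11.65 and 11.52 in placebo females and at 11.19, 11.35 and 11.70 (lowest, median, highest) in GnRH females. In males, Acly was at 11.33, 11.59 and 11.74 with placebo and 11.41, 11.48 and 11.58 with GnRH. In females 3 of 6 GnRH animals lay below every placebo animal and 1 above, while the male GnRH group lay inside the placebo range. The averaged difference was -0.11 (95% interval -0.22 to 0.012, adjusted p = 0.472, limma).

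Scd2, the stearoyl-CoA desaturase known for its part in brain and other nervous tissue, ranged over 0.890. It was at 12.59, 12.17, 12.66, 12.46 and 12.53 in placebo females and at 11.98, 12.36 and 12.75 (lowest, median, highest) in GnRH females. In males, Scd2 was at 12.17, 12.54 and 12.87 with placebo and 12.13, 12.29 and 12.59 with GnRH. All 4 groups overlapped, and the averaged difference was -0.13 (adjusted p = 0.552). Its paralog Scd1 had -0.054, Fasn, the fatty acid synthase, -0.071, and Acaca, which makes malonyl-CoA for it, -0.047. Elovl6, an elongase of saturated and monounsaturated chains, was the only one above 0, at 0.054. How reads shared by paralogs such as Scd1 and Scd2 were counted is not given in the sources used here.

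Over the 30 members, small negative differences outnumbered positive ones. Averaged over the sexes 22 of 30 members were negative, beside 50.6% of all genes tested, and the median of the members was -0.041. By unadjusted p under 0.05, 4 of 30 were lower, beside 5.48% of all genes, and 1 was higher, beside 6.51%. Either direction held for 5 of 30 members and 12% of all genes. In males 22 of 30 were negative (51.5% of all genes), the median was -0.071 against -0.0022 for all genes, and 5 of 30 had an unadjusted p under 0.05 in that direction, beside 2.25% of all genes. Pmvk alone had one in the other direction, beside 4.17%, which makes 6 of 30 in all, beside 6.42%. The 5 lower members were Sqle, Dhcr7, Srebf1, Stard4 and Tm7sf2. In females 17 of 30 were negative (49.9% of all genes), with a median of -0.016. With 1 animal left out the female median ran from -0.066 (without placebo female 2) to 0.0077 (without placebo female 3), so its sign is not settled, while the averaged one ran from -0.059 to -0.029 and the male one from -0.094 to -0.048. The genes of a pathway are not independent of each other, so these counts are descriptions and carry no test.

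**Figure D2:**
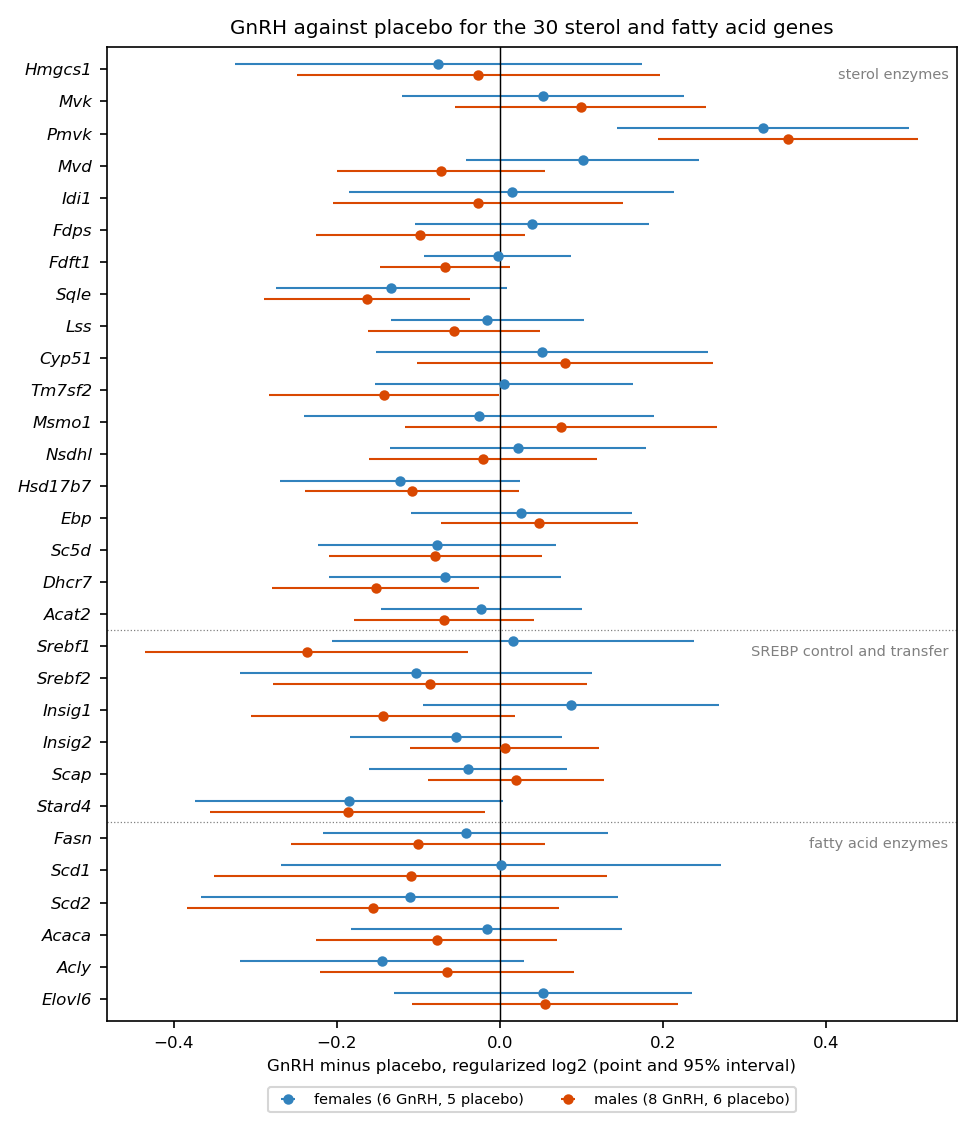
GnRH minus placebo for the 30 members in females (blue) and males (orange) on the regularized log2 scale, each point with its 95% interval from limma, in 3 blocks by role. Pmvk stands to the right in both sexes, at 0.32 and 0.35, while most other intervals include 0.

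Males against females asked whether the sexes differed in these genes. No member was called with placebo, with GnRH or in the difference of the GnRH effect, beside 0.047%, 0.0522% and 0% of all genes (limma). In those comparisons 1, 0 and 0 members had an unadjusted p under 0.05, beside 3.07%, 5.53% and 2.76% of all genes. Negative differences were found for 17, 20 and 18 of 30 members, beside 51.2%, 49.9% and 49.7% of all genes. The member with such a p was Insig1, which holds the SCAP complex in the endoplasmic reticulum. With placebo, Insig1 was at 10.50, 10.14, 10.65, 10.14 and 10.48 in females and at 10.44, 10.56 and 10.82 (lowest, median, highest) in males. With GnRH, Insig1 was at 10.33, 10.42 and 10.65 in females and 10.13, 10.47 and 10.53 in males. Placebo males lay towards the top of the placebo females with overlap, and the ranges of the GnRH animals of both sexes overlapped widely. The male minus female difference was 0.20 with placebo (adjusted p = 0.999) and -0.030 with GnRH, and the difference of the GnRH effect was -0.23 (95% interval -0.47 to 0.013, adjusted p = 0.999).

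In the GnRH groups the smallest p-values between the sexes belonged to Dhcr7 (-0.10, male minus female), Fdps (-0.10) and Scd1 (-0.19), with adjusted p of 0.921, 0.924 and 0.924. Fdps was at 6.86, 6.73, 6.98, 6.87 and 6.80 in placebo females, and its lowest, median and highest were 6.72, 6.88 and 7.02 in GnRH females, 6.72, 6.87 and 7.08 in placebo males and 6.65, 6.79 and 6.97 in GnRH males. All 4 groups of Fdps overlapped, and the GnRH males reached lowest. Scd1 was at 9.21, 8.77, 9.23, 9.01 and 8.97 in placebo females and at 8.73, 9.04 and 9.40 (lowest, median, highest) in GnRH females. In males, Scd1 was at 8.62, 8.87 and 9.30 with placebo and 8.59, 8.90 and 9.20 with GnRH. The groups of Scd1 overlapped too. It had the widest 95% interval of the male minus female differences with GnRH among these 3, -0.43 to 0.051.

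Other genes of the pathways were taken from 3 lists chosen by function, also with earlier results of these data known. Of 19 further sterol genes tested, 1 rose and 0 fell in the averaged comparison, and of 24 further fatty acid genes 1 rose and 0 fell, beside the 1.71% of all genes called. None of 9 genes tied to the liver X receptors, which respond to oxysterols, was called. The medians of the 3 lists were -0.018, -0.038 and 0.0029, where that of all genes was -0.00088. Soat1, which esterifies cholesterol for storage, was at 10.53, 10.29, 10.45, 10.41 and 10.58 in placebo females and at 10.37, 10.86 and 11.41 (lowest, median, highest) in GnRH females. In males, Soat1 was at 10.37, 10.46 and 10.63 with placebo and 10.70, 11.00 and 11.34 with GnRH. The male groups did not overlap, and 1 GnRH female lay among the placebo females. Soat1 rose by 0.47 (1.38-fold, 95% interval 0.29 to 0.64, adjusted p = 0.00197, limma), and without males 18 and 21 by 0.41 (adjusted p = 0.00492).

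Elovl5, which elongates polyunsaturated fatty acids, was at 10.96, 10.76, 10.96, 10.87 and 10.92 in placebo females and at 10.92, 11.12 and 11.40 (lowest, median, highest) in GnRH females. In males, Elovl5 was at 10.74, 10.82 and 10.97 with placebo and 10.94, 11.13 and 11.24 with GnRH. Most GnRH animals lay above the placebo animals of their sex, with a small overlap in each sex. Elovl5 rose by 0.26 (95% interval 0.17 to 0.36, adjusted p = 0.00128). In females alone the differences were 0.42 for Soat1 and 0.25 for Elovl5 (adjusted p = 0.245 and 0.201), and in males 0.51 and 0.28 (adjusted p = 0.0314 and 0.0286). Without males 18 and 21 neither male difference passed (0.40 and 0.24, adjusted p = 0.207 and 0.191), nor did they with no filter on low genes (adjusted p = 0.0994 and 0.0691). The male call of Soat1 was lost in 9 of 14 fits without 1 animal (12, 13, 14, 15, 16, 18, 20, 21 or 25, adjusted p = 0.0587 to 0.0861) and that of Elovl5 in 8 of 14 (the same animals except 15, adjusted p = 0.0616 to 0.102). Soat1 passed in females without GnRH female 10 (0.52, adjusted p = 0.0417). Both averaged calls were kept in all 25 such fits, and without females 5, 6 and 7 (0.51 and 0.27, adjusted p = 0.00739 and 0.011).

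The next smallest p-values of the lists missed the threshold. Mbtps2, a protease that releases SREBPs from the membrane, had an averaged difference of -0.10 (adjusted p = 0.398, limma). Hsd17b12, a reductase of the elongation cycle, had -0.088 (0.368) and Acsl1, which activates long-chain fatty acids, -0.13 (0.394). Among the liver X receptor genes Smpdl3a had -0.14, Apoe, an apolipoprotein that carries lipids, 0.12 and Nr1h2, a liver X receptor, 0.067 (adjusted p = 0.284, 0.341 and 0.587).

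Many members varied together between animals of the same group. Correlations were computed over the 25 animals after each value was set against its group mean, and they are descriptions without p-values. All genes of an animal come from 1 library, so they share its depth and tissue sampling. Over the 435 pairs of members the median r was 0.18, and 15.9% of pairs had r above 0.5, where all pairs of genes tested had a median of -0.002 and 4.81% above 0.5. By role, the median r was 0.16 among the sterol enzymes, 0.39 among the genes of SREBP control and transfer, and 0.56 among the fatty acid enzymes, of whose 15 pairs all were positive. The median over all members was 0.15 to 0.19 with any 1 animal left out. The medians by role moved more in those fits. They ran from 0.090 to 0.18 for the sterol enzymes, 0.30 to 0.44 for SREBP control and transfer, and 0.44 to 0.65 for the fatty acid enzymes.

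The highest pair was Srebf2 with Scd2, at r = 0.89 (rho 0.82, and 0.85 without the 2 animals farthest from the median of Srebf2). Srebf2 with Acly had r = 0.88 (rho 0.80, and 0.85 without the 2 animals farthest from the median of Srebf2). The desaturases Scd1 and Scd2 had r = 0.85. The 3 members closest to Srebf2 were Scd2, Acly and Scd1, all of them fatty acid enzymes. The lowest pair was Nsdhl with Acaca at r = -0.62. Members had a median range over the animals of 0.531 and a median SD within groups of 0.139, where all genes tested had 0.463 and 0.116.

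**Figure D3:**
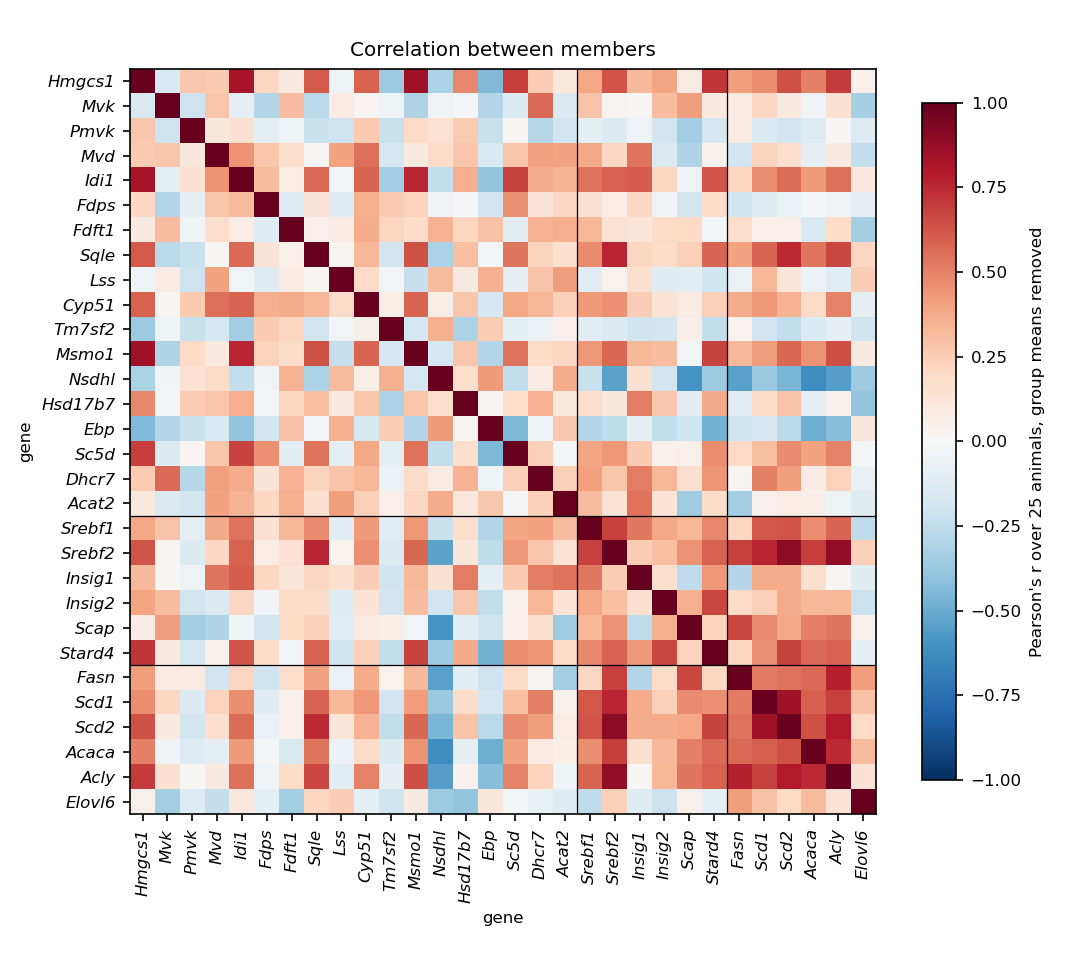
Pearson's r between every pair of the 30 members over 25 animals with group means removed, in the order sterol enzymes, SREBP control and transfer, fatty acid enzymes, with lines between the roles. The lower right corner, with Srebf2 and the fatty acid enzymes, is mostly red, and the rows of Nsdhl and Ebp are mostly blue.

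Among the sterol enzymes 6 stood together, chosen after their correlations were seen and therefore not tested. They were Hmgcs1, Idi1, Msmo1, Sqle, Sc5d and Cyp51, with a median r of 0.59 over 15 pairs (0.33 to 0.84). The other 12 sterol enzymes had a median of 0.12 among themselves. Hmgcs1 had r = 0.84 with Msmo1 and 0.82 with Idi1. The mean of the 6 went with Srebf2 at r = 0.69 (rho 0.58), with Stard4 at 0.67 (rho 0.58) and with Insig1 at 0.41 (rho 0.41). Without the 2 animals farthest from the median of the 6 these were 0.54, 0.55 and 0.47.

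Single animals stood out in this pattern. GnRH female 8 lay 0.28 above its group mean over the 6 genes and GnRH female 10 was at -0.29. Placebo female 3 was at 0.19, placebo female 2 at -0.20 and placebo male 16 at -0.20. Each deviation was taken from the animal's own group mean, so every group holds animals above and below that mean by construction. Without animals 8 and 10 the median r of the 6 genes was 0.47, and without females 5, 6 and 7 it was 0.67. Among the marker lists, the mean of the 6 had its highest r with the posterior lobe (0.48, rho 0.37, 0.39 without the 2 farthest animals) and its lowest with somatotropes (-0.46, rho -0.34, -0.50). All 4 posterior lobe and all 3 somatotrope markers entered these levels, which sum unlogged values, so the highest gene of each list weighs most. Over the animals Gh had a mean of 21.5, against 12.9 for Ghrhr and 12.7 for Pou1f1. Col25a1 had 9.43, against 7.06 for Oxt, 6.51 for Avp and 6.08 for Rax. The part of these cells in the pattern was not tested.

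**Figure D4:**
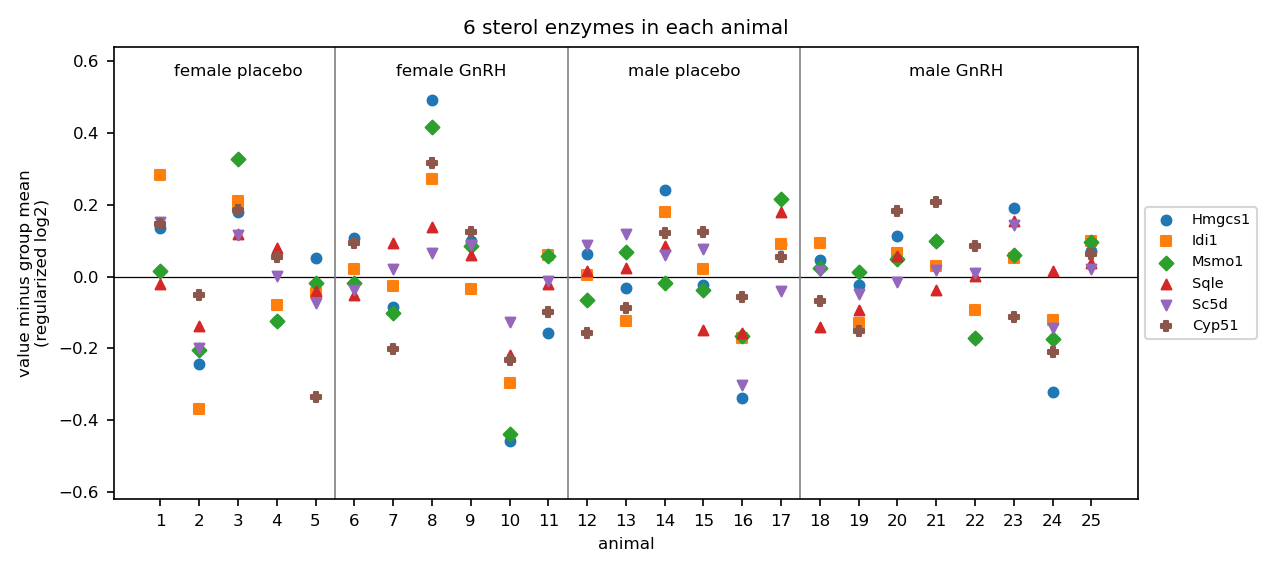
Deviation of Hmgcs1, Idi1, Msmo1, Sqle, Sc5d and Cyp51 from their group mean in each animal, in regularized log2 units, with the 4 groups side by side. Female 8 has all 6 genes above 0 and female 10 all 6 below 0, while Hmgcs1 spans the widest distance.

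Pmvk was not among these genes. Its correlations with the other 29 members ran from -0.35 to 0.27, with a median of -0.13. With the mean of the 18 sterol enzymes, which holds it, Pmvk had r = 0.19, and low values were also found for Mvk (-0.0061), Tm7sf2 (-0.052), Ebp (-0.15), Nsdhl (0.16) and Lss (0.22). The same measure was 0.79 for Idi1 and 0.83 for Cyp51. Outside the members, genes among the 8 most like that mean over the 25 animals were Nid1 (r = 0.81, rho 0.82), Tmem168 (0.77, 0.77), Cpxm1 (0.76, 0.78), Shoc2 (0.75, 0.72), the predicted gene Gm6485 (0.75, 0.70), Bok (0.74, 0.70) and Brox (0.73, 0.77). Across all genes tested, 2.78% had r above 0.5 with it.

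Exons of 11 members overlap exons of other annotated genes, among them Tm7sf2 with Vps51 and Fdps with Gm43738 on the same strand, and Cyp51 with Akap9, Fdft1 with Ctsb, Srebf1 with Rai1, Hmgcs1 with Gm48342 and Idi1 with Gm48574 on the opposite strand. Whether strand was used in counting is not given in the sources used here, so reads of these pairs may not be separable.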

How the data were processed

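RNA was sequenced from 25 whole pituitaries, 1 library per animal. Reads were converted with bcl2fastq, aligned to mm10 with STAR and counted with featureCounts, per the submitters' processing notes. Not given in the sources used here: tool versions, gene annotation, strand setting, and the handling of shared reads. The deposited table holds regularized log2 values per gene, per the file headers, for all 25 animals; it gives no counts, so depth per sample is unknown and its effect on precision could not be given. Groups came from the sample labels, which place 8 animals in the male GnRH group although the design text states 5 to 7 per condition; the labels were followed, and no sequencing batch or date is given.

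Genes averaging 3 or more entered a fit in limma 3.58.1 (R 4.3.3): 1 mean per group, all 25 animals, a mean-variance trend, 6 contrasts, Benjamini-Hochberg adjustment over the 19141 genes and a threshold of 0.05. The fit was tested on simulated data. Fold changes are powers of 2 of regularized differences. The members and lists were chosen with earlier results of these data known. Besides the members described in full (those with the smallest p-values in a comparison or the widest range over the animals), the text names up to 3 genes per pathway list, those with the smallest p. Correlations used values with group means removed. Promoter letters came from RefSeq (GRCm38.p6). Alternatives were quantile normalization, median centring, no filter, a minimum mean of 5, no trend, a robust prior, array weights, only the groups compared, and animals left out. A few genes that these rules would name are not reported here.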

Additional observations from a re-analysis of the deposited data

Results flagged for a closer look

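In 6 of the 120 groups (30 members in 4 groups) 1 animal lay far from the others of its group by Dixon's criterion, and chance alone flags about 1 group in 20. In placebo male 14, Hsd17b7 was at 6.75 with the next animal at 6.54, and Insig1 was at 10.82 with the next at 10.57. Placebo male 16 had the lowest Sc5d of its group, 8.34, with the next at 8.60. Placebo male 12 had the lowest Acat2, 8.14, with the next at 8.35. Placebo female 2 had the lowest Srebf2, 10.85, with the next at 11.21. GnRH male 19 had the lowest Insig1, 10.13, with the next at 10.43. GnRH animals were also set against the placebo mean of their sex. In no member did all GnRH females move in a single direction and all GnRH males in the opposite direction.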

How the results depend on the processing

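Of 2874 recomputed values, 2760 were kept, 48 turned sign, 31 lost and 4 gained a call, and 31 moved further. For a gene, kept meant the same direction and the same side of the threshold. For a count of calls it meant staying within a set fold of the main count. For a median difference it meant a change below the SD between animals of the members' mean. For a median correlation it meant a change below its standard error from leaving out animals. The values that moved further were all counts of calls. No paired analysis was possible because animal numbers run on through the groups and pair no samples. Leaving out females 5, 6 and 7, or females 8 and 10 for correlations, was chosen after seeing the data. Every member has 1 row, so the choice among rows gave no alternative.

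Genes called in females numbered 19, and 7 with no filter, 62 with array weights, 1 without females 5 to 7 and 4 to 67 with 1 animal left out (7, 5, 4, 12, 67 and 6 without females 3, 5, 6, 7, 10 or 11). In males they numbered 95, and 42, 239, 38 (without males 18 and 21) and 46 to 153 (58, 60, 46, 153 and 63 without males 12, 13, 14, 19 or 25). Averaged over the sexes they numbered 327, 942 with array weights and 149 without females 5 to 7. Between the sexes with GnRH they numbered 10, and 8 to 17 with 1 animal left out (17 without female 10). Members called in males went from 1 to 0 with no filter (Pmvk, adjusted p = 0.0721), with only the groups compared (0.0893) and without males 18 and 21, and were 0 to 1 with 1 animal left out. Averaged, they numbered 3 with array weights (Pmvk, Sqle at -0.17 and Stard4 at -0.22, limma adjusted p = 0.0184 and 0.0207 for the last pair) and 1 to 2 with 1 animal left out. Fshb in females was 1.76 without females 5 to 7 (adjusted p = 0.0638).

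Signs that turned were all of small values. With array weights Srebf1 in females was -0.058. Without males 18 and 21 the Pmvk difference of effects was -0.078 and averaged Nsdhl -0.0080. Without females 5 to 7, Tm7sf2 in females was -0.012, and averaged Mvd was -0.013, Nsdhl -0.053, Scap 0.0084 and Acaca 0.0039. With 1 animal left out, averaged Idi1 ran from -0.052 to 0.029, Insig1 -0.058 to 0.0058, Msmo1 -0.017 to 0.069, Mvd -0.00029 to 0.034, Nsdhl -0.028 to 0.022 and Scap -0.032 to 0.0085; in females Srebf1 ran from -0.10 to 0.076 and Tm7sf2 from -0.033 to 0.037; the Pmvk difference of effects ran from -0.023 to 0.065. Fewer animals or other genes tested apart, the cause was not tested. Without counts, what depth limits is unknown.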
